A study of Macaca mulatta with 6 samples.

Results

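The ESCRT machinery was followed at the RNA level in RF/6A cells, an established rhesus macaque line labelled as choroidal endothelial, after 4 hours in 50% human serum. Control cells received serum that had been heat-inactivated, which destroys its complement, and the other cells received normal serum, whose complement can assemble the membrane attack complex in cell membranes. All cultures were grown to confluence on porous inserts in medium with fetal bovine serum, and each treatment gave 3 libraries of polyadenylated RNA. Other effects of heating the serum cannot be told apart from the loss of complement. The labels do not name separate cultures behind the replicates, and p-values cover only variation from library to library, which may be technical. The members were found by symbol from a list of 35 genes of the machinery, with no threshold on their values, although the list was drawn up with earlier results of these data known. In all 29 of the 35 were found in a table of 24932 genes. The 6 symbols not found were VPS37A, MVB12A, CHMP1B, CHMP3, CHMP4A and IST1, and these genes were not analysed under those names.

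ESCRT stands for endosomal sorting complexes required for transport. The early complexes gather ubiquitin-tagged membrane proteins, and ESCRT-III then assembles into filaments that pinch membrane buds off from inside their neck, after which the ATPase VPS4 takes the filaments apart. Besides sorting receptors to lysosomes and cutting the last bridge between dividing cells, the machinery repairs the plasma membrane: calcium that enters through a wound or pore binds the sensor ALG-2, which brings in ALIX and ESCRT-III, and the damaged patch is shed as vesicles. The comparison asks whether the RNA of these genes differed between cells in normal and in heat-inactivated serum.

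Values are FPKM, fragments per kilobase of transcript scaled to sequencing depth, with the transcripts of a gene summed. FPKM is scaled for transcript length, and levels are set side by side between genes on that basis. Such rankings depend on the listed lengths, and PDCD6 rests in large part on a transcript of 198 bases. Changes were tested on log2(FPKM + 1) with limma across the 11818 genes that averaged 1 FPKM or more, and a gene was called at a Benjamini-Hochberg adjusted p under 0.05. In replicates 2 and 3 of both treatments the lowest values were whole multiples of 1 fragment. Depth read from these values, which is the depth after scaling and not a count of sequenced fragments, lay between 14700000 and 17900000 fragments. It could not be read with the same certainty in the replicate 1 libraries. Correlations of log2 values across genes were 0.977 to 0.984 within a treatment and 0.934 to 0.949 across treatments. Of 12 endothelial markers 11 were in the table and 4 reached a mean of 1 FPKM, all called higher in normal serum (summed level 73.8 to 75.8 FPKM in the control and 97.9 to 104 FPKM in normal serum), while CDH5, KDR, TEK and TIE1, which define endothelium, averaged at most 0.370 FPKM in either treatment and CDH5 was listed at 0 in every control library. Of 7 fibroblast and mural markers 6 were called lower and 1 higher (6826 to 7353 FPKM against 3327 to 3500 FPKM). Leukocyte (0.999 to 2.19 FPKM) and epithelial markers (2.40 to 6.28 FPKM) were low, with CDH1 called lower (5.54 to 2.03 FPKM), and the retinal pigment epithelial sum (36.3 to 43.7 FPKM) was nearly all PMEL, which was not called. The part of these shifts in the results below was not tested, and in RNA from whole cultures fewer cells of a type and less RNA per cell cannot be told apart.

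HGS of ESCRT-0 and VPS37B and UBAP1 of ESCRT-I rose 1.58-fold to 1.90-fold in normal serum, and the log2 changes of all other members tested lay between -0.32 and 0.40. Of the 28 members tested, 9 were called higher and 3 lower in normal serum. That is 42.9% of the members, against a background of 54.0% of all genes tested. The members called higher made up 32.1% (background 27.8%) and those called lower 10.7% (background 26.1%). No member was called with a change of 2-fold or more on the log2 scale, against 6.03% of all genes. The median log2 change was 0.13 over the members and 0.01 over all genes, and the median size of change was 0.18 against 0.31. In 15 members, or 53.6%, the 3 libraries of one treatment all lay above or all below the other 3, against 62.6% of all genes. These shares are a description of the members and were not tested as a set. The 29th member, VPS37D, was below the filter on low values.

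**Figure D1:**
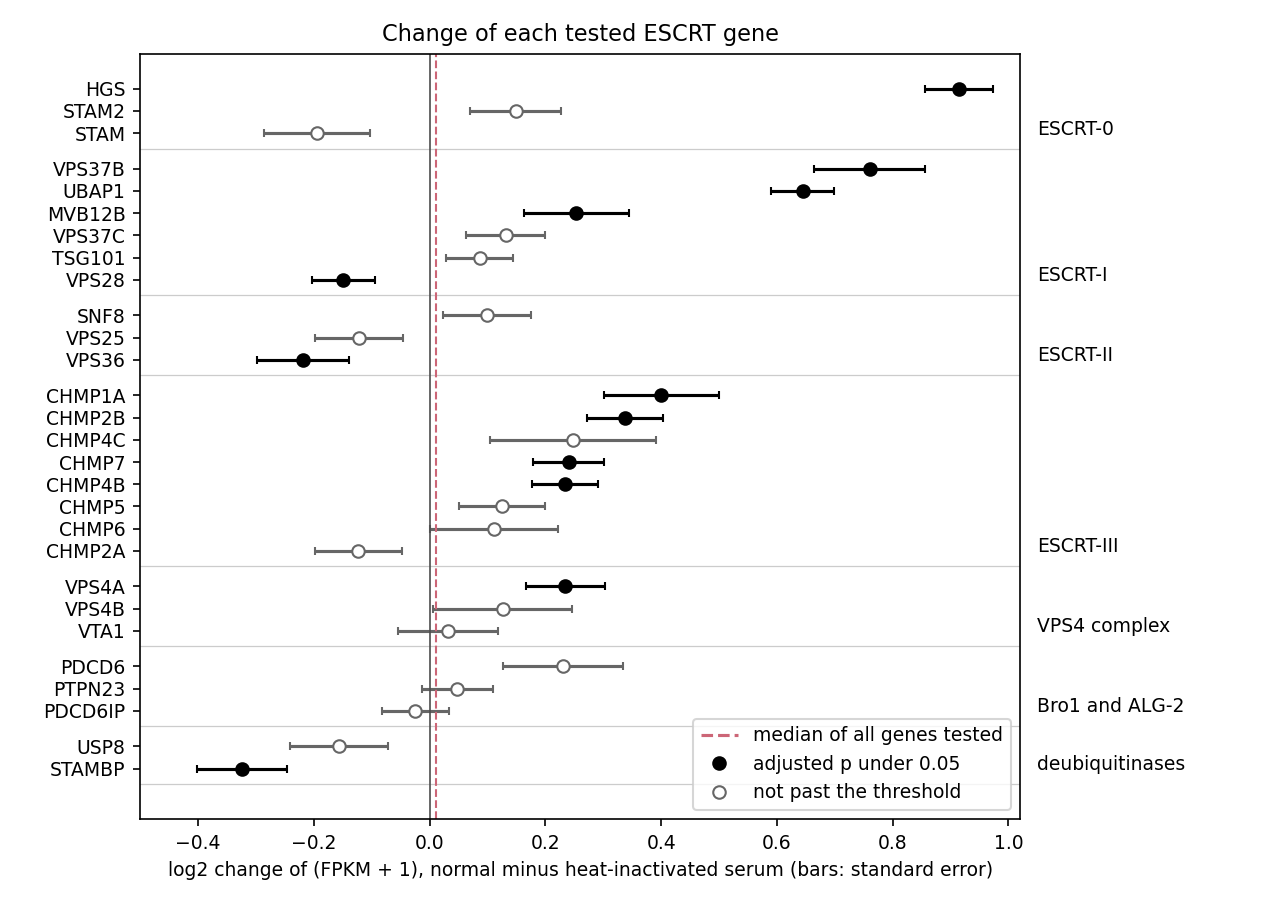
Log2 change of FPKM + 1 (horizontal axis, normal minus heat-inactivated serum) for the 28 tested members by complex, with bars for the standard error, filled points for adjusted p under 0.05 and a dashed line at the median of all genes. HGS, VPS37B and UBAP1 lie between 0.64 and 0.91, and all other members lie between -0.32 and 0.40.

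ESCRT-0 is the heterodimer that first binds ubiquitin-tagged cargo on endosomes. HGS encodes its HRS subunit, which holds the complex on endosomal membrane through a lipid-binding FYVE domain and recruits ESCRT-I. HGS stood at 45.7, 44.7 and 42.0 FPKM in the control and at 86.9, 83.1 and 82.1 FPKM in normal serum. All normal serum libraries were thus far above all controls, and the mean rose 1.90-fold, from 44.1 ± 1.92 to 84.0 ± 2.54 FPKM (SD, n = 3 per treatment), with a log2 change of 0.91 ± 0.059 (SE, limma adjusted p = 3.07e-05). Neither of the STAM genes, whose products pair with HRS, was called. STAM was at 7.65, 7.95 and 8.08 FPKM in the control and at 6.14, 7.69 and 6.55 FPKM in normal serum. The STAM groups overlapped, with a log2 change of -0.19 (limma adjusted p = 0.108, 95% interval -0.41 to 0.02), but without normal serum replicate 2 STAM was called lower (limma log2 -0.28, adjusted p = 0.0380), and it was also called lower on the scales with equal totals described below. STAM2 lay slightly higher in normal serum in every library (9.21 to 10.1 against 10.1 to 11.7 FPKM), a difference that was not past the threshold (limma adjusted p = 0.146).

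The make-up of ESCRT-0 RNA shifted with HGS. HGS held 72.1%, 71.7% and 70.8% of the summed FPKM of the 3 genes in the control libraries and 83.8%, 81.0% and 83.1% in normal serum. The share of STAM went from 12.8% ± 0.782 to 6.69% ± 0.796 (SD, n = 3), and that of STAM2 from 15.7% ± 0.185 to 10.6% ± 0.701. The summed FPKM of ESCRT-0 was 1.65 times as high in normal serum (61.7 ± 2.14 against 102 ± 2.55 FPKM), and most of that difference lay in HGS.

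ESCRT-I is a rod-shaped complex that links the cargo stage to the filament stage. Each copy holds TSG101, VPS28, 1 of several VPS37 proteins and either an MVB12 protein or UBAP1. Its 2 common subunits moved little. TSG101, which binds HRS, ALIX and viral proteins through a short peptide motif, was at 41.8, 39.3 and 40.3 FPKM in the control and at 44.8, 42.3 and 42.0 FPKM in normal serum. The TSG101 groups were separate by a narrow margin, and its change of 0.09 on the log2 scale was not past the threshold (limma adjusted p = 0.246, 95% interval -0.05 to 0.22). VPS28, the most abundant ESCRT-I transcript, was at 122, 126 and 125 FPKM in the control and at 114, 116 and 108 FPKM in normal serum. VPS28 fell by 0.15 on the log2 scale with limma adjusted p = 0.0497, and this call was at the edge of the threshold: it ended when any 1 library was left out (adjusted p from 0.0682 to 0.132) and in 7 other alternatives. The fall was larger and called on the equal-total scales described below (log2 -0.29 and -0.32, limma adjusted p = 0.0255 and 0.00118). After quantile normalization it was also larger and called (log2 -0.36, limma adjusted p = 7.26e-04).

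The rises in ESCRT-I were in the subunits that vary between its copies. VPS37B was at 6.49, 7.53 and 6.62 FPKM in the control and at 11.0, 13.5 and 12.6 FPKM in normal serum. The VPS37B groups did not overlap, and the mean rose 1.80-fold (6.88 ± 0.565 to 12.4 ± 1.28 FPKM, log2 0.76 ± 0.096 SE, limma adjusted p = 5.41e-04). UBAP1, the subunit linked to sorting of ubiquitin-tagged receptors at endosomes, was at 26.3, 25.9 and 25.3 FPKM in the control and at 40.1, 41.0 and 41.7 FPKM in normal serum. Its replicates were close, and the mean rose 1.58-fold (25.8 ± 0.497 to 40.9 ± 0.763 FPKM, log2 0.64 ± 0.055 SE, limma adjusted p = 9.42e-05). In the RefSeq annotation of another macaque assembly 5 genes overlap UBAP1. The kinesin gene KIF24 was lower in normal serum (6.12 ± 0.490 to 4.12 ± 0.158 FPKM), the other 4 were not analysed here, and what reads of these genes add to UBAP1 was not tested.

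MVB12B, an alternative to UBAP1 in the complex, was at 4.11, 4.70 and 4.34 FPKM in the control and at 5.93, 5.29 and 5.04 FPKM in normal serum. MVB12B rose by 0.25 on the log2 scale (limma adjusted p = 0.0475), and the call ended without any control library or without normal serum replicate 1 or 2 (adjusted p from 0.0567 to 0.135) and with no filter on low genes (adjusted p = 0.0784). VPS37C was at 9.31, 9.06 and 9.32 FPKM in the control and at 9.82, 10.8 and 9.97 FPKM in normal serum, and was not called (limma adjusted p = 0.144). VPS37D, the rarest member, was at 0.934, 0.907 and 0.926 FPKM in the control and at 0.468, 0.450 and 0.618 FPKM in normal serum. Those levels rest on few fragments, about 18.0 and 16.0 in control replicates 2 and 3 and 8.03 and 13.0 in normal serum replicates 2 and 3. VPS37D was not tested under the filter and was lower by 0.35 on the log2 scale with no such filter (limma adjusted p = 0.00763 over 17172 genes).

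**Figure D2:**
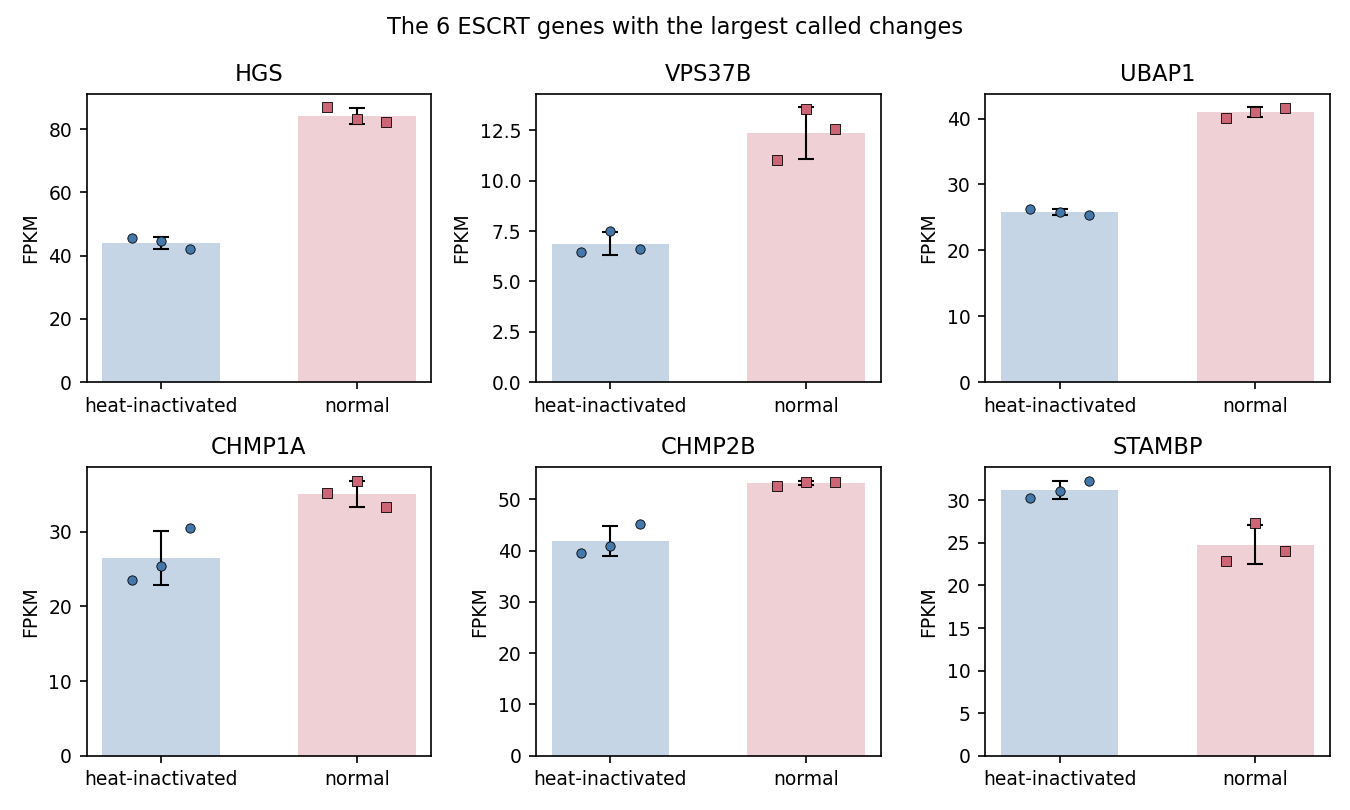
FPKM per library (points), mean (bars) and SD (error bars, n = 3) of the 6 members with the largest called changes, in heat-inactivated and normal serum. HGS stands at 82.1 to 86.9 FPKM in normal serum against 42.0 to 45.7 FPKM in the control, and STAMBP is the 1 gene of the 6 that is lower in normal serum.

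The balance between related subunits was compared within each library as a log2 ratio of FPKM + 1. Of 10 pairs fixed in the design 6 had both genes in the table, and with 3 libraries against 3 an exact permutation test cannot give a p below 0.1. The ratio of VPS37B to VPS37C was -0.46, -0.24 and -0.44 in the control and 0.15, 0.30 and 0.31 in normal serum. By FPKM, VPS37B was thus the lower of the 2 in all control libraries and the higher in all normal serum libraries (difference 0.63, two-sided exact p = 0.1, adjusted over 6 pairs 0.15). The ratio of STAM to STAM2 was lower in all normal serum libraries, with means of -0.26 ± 0.092 and -0.60 ± 0.086 (SD, n = 3, two-sided exact p = 0.1, adjusted 0.15). The other ratios are given with their complexes below.

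ESCRT-II joins ESCRT-I to the first ESCRT-III subunits. SNF8, its most abundant transcript, was at 113, 133 and 129 FPKM in the control and at 131, 140 and 130 FPKM in normal serum. The SNF8 groups overlapped, as did those of VPS25, the subunit that contacts CHMP6 (58.1 to 67.2 FPKM in the control and 54.4 to 60.0 FPKM in normal serum), and neither was called (limma adjusted p = 0.302 and 0.207). VPS25 was called lower on the scales with equal totals described below and after quantile normalization. VPS36, the ubiquitin-binding subunit, was at 9.12, 8.74 and 9.88 FPKM in the control and at 8.30, 7.32 and 7.79 FPKM in normal serum. VPS36 fell by 0.22 on the log2 scale (limma adjusted p = 0.0490). The call ended without any control library or without normal serum replicate 2 or 3 (adjusted p from 0.0606 to 0.154). It ended too when the highest transcript alone stood for the gene (log2 -0.03, adjusted p = 0.924).

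ESCRT-III supplies the filament that narrows and cuts the membrane neck. Of the 12 listed genes 8 were in the table under their listed symbols. IST1 and CHMP3 were there under earlier symbols, called higher (log2 0.20) and lower (log2 -0.30), and are described at the end. Of the 8 genes found by listed symbol 4 were called higher (background 27.8%), 0 lower (background 26.1%) and 4 not past the threshold. Their median log2 change was 0.24. With 4 of 8 called in either direction, the share was near the 54.0% of all genes. CHMP4B, the main filament-forming subunit and the most abundant member of all, was at 147, 156 and 160 FPKM in the control and at 185, 183 and 176 FPKM in normal serum. The CHMP4B groups were separate, with a rise of 1.18-fold (154 ± 6.47 to 182 ± 4.77 FPKM, limma adjusted p = 0.0105). CHMP4C, a relative known from the control of the last step of cell division, was at 4.41, 5.52 and 5.91 FPKM in the control and at 5.22, 7.50 and 6.71 FPKM in normal serum. The CHMP4C groups overlapped and it was not called (limma adjusted p = 0.180), but it was called higher without normal serum replicate 1 (limma log2 0.37, adjusted p = 0.0484) and when a model term set the replicate 1 libraries apart (log2 0.25, adjusted p = 0.0308). The ratio of CHMP4B to CHMP4C was 4.63 ± 0.123 in the control and 4.62 ± 0.247 in normal serum (SD, n = 3, log2, two-sided exact p = 0.9).

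The other ESCRT-III genes called were CHMP1A, CHMP2B and CHMP7. CHMP1A, a late subunit that binds VPS4, was at 23.6, 25.4 and 30.5 FPKM in the control and at 35.2, 36.8 and 33.3 FPKM in normal serum. Control replicate 3 was the nearest to the treated libraries, and CHMP1A rose 1.33-fold (26.5 ± 3.59 to 35.1 ± 1.75 FPKM, limma adjusted p = 0.0113). CHMP2B, which with CHMP2A caps and remodels the CHMP4 filament, was at 39.6, 40.9 and 45.3 FPKM in the control and at 52.7, 53.4 and 53.5 FPKM in normal serum. CHMP2B rose 1.27-fold (41.9 ± 2.94 to 53.2 ± 0.458 FPKM, limma adjusted p = 0.00393). CHMP7, which seeds filaments at the reforming nuclear envelope, was at 21.7, 21.3 and 23.1 FPKM in the control and at 26.9, 26.2 and 25.5 FPKM in normal serum, a rise of 1.19-fold (limma adjusted p = 0.0131). The calls of CHMP1A and CHMP7 ended within replicates 2 and 3 alone (limma adjusted p = 0.0545 and 0.0623).

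CHMP2A, close in level to CHMP4B in the control, was not called while CHMP2B rose. It was at 140, 158 and 161 FPKM in the control and at 133, 150 and 138 FPKM in normal serum, with overlapping groups (log2 -0.12, limma adjusted p = 0.202). CHMP2A was called lower on the scales with equal totals described below and after quantile normalization. The ratio of CHMP2A to CHMP2B was 1.80, 1.92 and 1.81 in the control and 1.32, 1.47 and 1.35 in normal serum. CHMP2A thus remained the more abundant of the pair in every library, with a smaller lead in normal serum (difference -0.46 on the log2 scale, two-sided exact p = 0.1, adjusted 0.15). Of its 3 listed transcripts, the one of 884 bases was lower when transcripts were tested singly (87.0, 97.9 and 87.1 against 73.6, 75.5 and 76.7 FPKM, limma adjusted p = 0.0195), and the other two were not past the threshold. In that test 39.6% of all transcripts were called. CHMP5, which binds the VPS4 partner LIP5, lay between 62.1 and 70.5 FPKM in the control and between 67.2 and 76.2 FPKM in normal serum. CHMP6, the subunit that ESCRT-II recruits, lay between 30.4 and 37.6 FPKM in the control and between 32.5 and 41.4 FPKM in normal serum. Neither was called (limma adjusted p = 0.189 and 0.420).

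The VPS4 enzymes pull ESCRT-III subunits out of the filament and so recycle them. VPS4A was at 43.4, 48.9 and 46.9 FPKM in the control and at 53.7, 57.8 and 52.7 FPKM in normal serum. VPS4A rose 1.18-fold (46.4 ± 2.83 to 54.8 ± 2.68 FPKM, limma adjusted p = 0.0229), a call that ended without control replicate 1 or 3 or normal serum replicate 2 (adjusted p from 0.0557 to 0.0818). VPS4B, its close relative, was several times rarer, at 7.57, 8.43 and 8.00 FPKM in the control and at 7.24, 9.19 and 10.3 FPKM in normal serum. The treated VPS4B libraries spanned the whole control range, and it was not called (limma log2 0.13, adjusted p = 0.403, 95% interval -0.15 to 0.41). The ratio of VPS4A to VPS4B did not separate the treatments (means of 2.40 ± 0.022 and 2.50 ± 0.240, SD, n = 3, two-sided exact p = 0.6). VTA1, which encodes the VPS4 activator LIP5, was at 19.4 to 24.0 FPKM in the control and 21.3 to 22.9 FPKM in normal serum (limma adjusted p = 0.775).

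**Figure D3:**
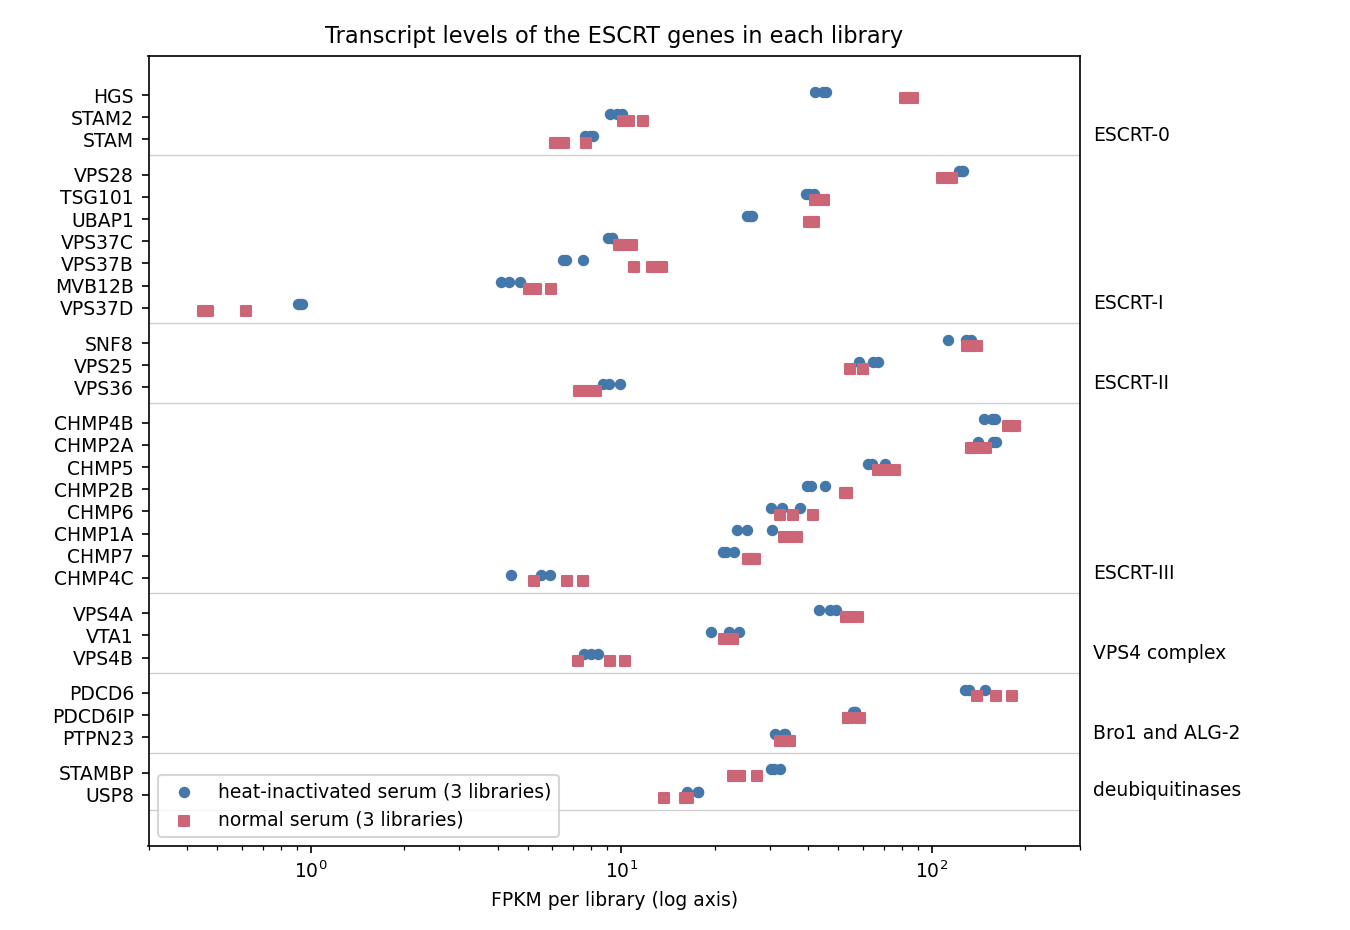
FPKM of the 29 members in each library (log axis), ordered by mean level within each complex, with circles for heat-inactivated and squares for normal serum. CHMP4B, CHMP2A, PDCD6, SNF8 and VPS28 lie above 100 FPKM in every library, and VPS37D lies below 1 FPKM in all 6.

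Of the genes for proteins that start ESCRT assembly at wounds, none was called as reported. PDCD6 was called higher in 3 of 20 alternatives. PDCD6 encodes ALG-2, the calcium sensor. It was at 149, 128 and 132 FPKM in the control and at 140, 161 and 181 FPKM in normal serum. Control replicate 1 lay above normal serum replicate 1, and the change of 0.23 on the log2 scale was not past the threshold (limma adjusted p = 0.0963, 95% interval -0.01 to 0.47). PDCD6 was called higher without normal serum replicate 1 (log2 0.32, limma adjusted p = 0.0258) and within replicates 2 and 3 alone (log2 0.39, limma adjusted p = 0.0105). On the equal-total scales described below its log2 change shrank to 0.09 and 0.06, and after quantile normalization to 0.0056. It was called on none of these scales (limma adjusted p from 0.619 to 0.971). PDCD6IP encodes ALIX, the adaptor that ALG-2 recruits and that binds CHMP4. It was at 56.4, 56.7 and 55.7 FPKM in the control and at 53.8, 53.7 and 58.5 FPKM in normal serum. The treated PDCD6IP libraries lay on both sides of the control, with a log2 change of -0.02 (limma adjusted p = 0.745, 95% interval -0.16 to 0.11). PTPN23, the other Bro1-domain adaptor, known as HD-PTP and linked to receptor sorting, was at 33.5, 33.6 and 31.4 FPKM in the control and at 34.6, 32.5 and 34.8 FPKM in normal serum, and was not called (limma adjusted p = 0.538). The ratio of PDCD6IP to PTPN23 was 0.76 ± 0.043 in the control and 0.69 ± 0.057 in normal serum, lower in all normal serum libraries by a narrow margin (SD, n = 3, log2, two-sided exact p = 0.1, adjusted 0.15).

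PDCD6 is listed as 2 transcripts of unlike length, and they differed in how well their replicates agreed. The transcript of 573 bases was at 54.4, 61.9 and 59.7 FPKM in the control and at 71.0, 78.2 and 73.9 FPKM in normal serum. Its groups did not overlap, and it was called higher when transcripts were tested singly (1.27-fold, limma log2 0.34, adjusted p = 0.0111). The authors' deposited table gives it a log2 change of 0.34 with q = 0.00365. The transcript of 198 bases was at 94.5, 65.7 and 72.5 FPKM in the control and at 69.2, 82.3 and 107 FPKM in normal serum, with overlapping groups. This short transcript held 49.4% to 63.5% of the gene's FPKM across libraries, so the summed value of PDCD6 depends on it. Without transcripts under 300 bases PDCD6 as a gene was called higher (limma adjusted p = 0.00293). In the RefSeq annotation of another macaque assembly 4 genes overlap PDCD6, and what their reads add to it was not tested.

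Of the ubiquitin-removing enzymes that act on ESCRT cargo, 1 fell. STAMBP encodes AMSH, which binds STAM and trims ubiquitin chains. It was at 30.2, 31.1 and 32.3 FPKM in the control and at 22.9, 27.3 and 24.1 FPKM in normal serum. The STAMBP groups did not overlap, and the mean in normal serum was 0.794 of the control (31.2 ± 1.04 to 24.8 ± 2.28 FPKM, log2 -0.32 ± 0.078 SE, limma adjusted p = 0.00991). USP8, which acts on the same cargo and stabilizes ESCRT-0, was at 16.3, 17.7 and 17.7 FPKM in the control and at 13.7, 16.1 and 16.4 FPKM in normal serum. The USP8 groups overlapped narrowly and it was not called (limma adjusted p = 0.156). It was called lower with a term for the replicate 1 libraries (log2 -0.16, limma adjusted p = 0.0467) and on the second equal-total scale described below (log2 -0.32, limma adjusted p = 0.0212).

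The fall of STAMBP lay in 1 of its 2 transcripts. The transcript of 1550 bases was at 11.9, 9.62 and 8.95 FPKM in the control and at 5.47, 3.44 and 3.94 FPKM in normal serum. Its mean in normal serum was 0.421 of the control (limma adjusted p = 0.00433 when transcripts were tested singly), and the authors' deposited table gives it a log2 change of -1.25 with q = 0.00270. The transcript of 1462 bases was at 18.3, 21.5 and 23.4 FPKM in the control and at 17.4, 23.9 and 20.2 FPKM in normal serum, with overlapping groups (limma adjusted p = 0.838), and when this transcript alone stood for the gene STAMBP was not called (log2 -0.04, limma adjusted p = 0.818). The 1550-base transcript held 39.5%, 30.9% and 27.7% of the gene's FPKM in the control and 23.9%, 12.6% and 16.3% in normal serum. FPKM of transcripts that share sequence depends on how the authors' software divided the fragments between them. For VPS36, for instance, 3.99, 0.912 and 0.000360 FPKM of the control were given to a transcript of 4400 bases and 5.14, 7.83 and 9.88 FPKM to one of 4336 bases, while the sum varied little. In the authors' deposited table, 34 of the 40 transcripts of the members were tested, of which 10 (29.4%) had a higher level in normal serum with q under 0.05 and 2 (5.9%) a lower one. Over all 17230 transcripts tested in the authors' deposited table these shares were 20.6% and 20.5%.

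**Figure D4:**
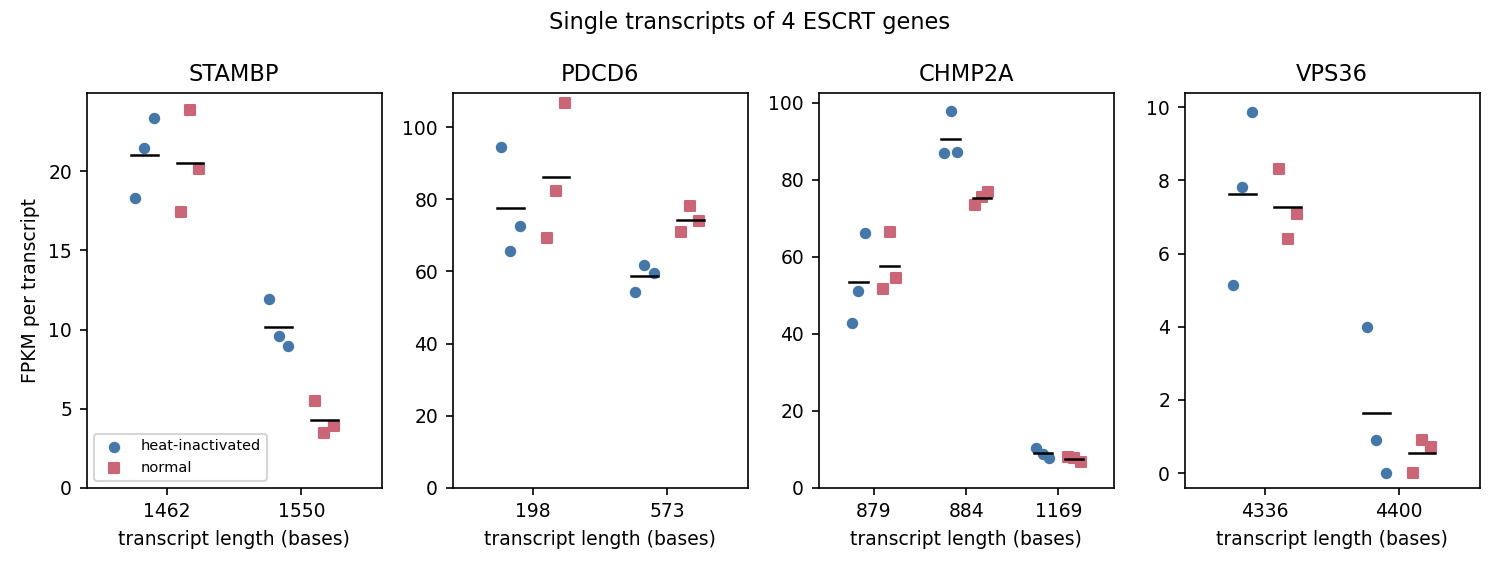
FPKM of each listed transcript (horizontal axis, length in bases) of STAMBP, PDCD6, CHMP2A and VPS36 in each library, with circles for heat-inactivated serum, squares for normal serum and lines at the means. The STAMBP transcript of 1550 bases is lower in all normal serum libraries (3.44 to 5.47 against 8.95 to 11.9 FPKM), while the groups of the 1462-base transcript overlap.

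The smaller changes depend on how the libraries were scaled. Setting the summed FPKM of every library equal took the median over all genes from 0.01 to -0.12, and to -0.14 when transcripts under 300 bases stayed out of the sum. On these scales, where 34.7% and 33.0% of all calls were higher in normal serum against 51.6% as reported, 4 and 3 of the 28 members were called higher and 6 and 8 lower. Of 11837 and 11836 genes tested there, 1952 and 2159 were called higher and 3672 and 4392 lower. HGS (log2 0.74 to 0.94), VPS37B (0.61 to 0.84) and UBAP1 (0.48 to 0.67) were called in all 20 alternatives. CHMP1A and CHMP2B were called in 18 each, with CHMP2B not called on either equal-total scale (limma adjusted p = 0.0790 and 0.0708) and CHMP1A not on the second (limma adjusted p = 0.0731). CHMP4B, CHMP7, VPS4A and MVB12B were not called on either scale, where their log2 changes lay between 0.06 and 0.13, and CHMP4B and VPS4A were not called after quantile normalization either (log2 0.0075 and 0.08). STAM and VPS25 were called lower on both equal-total scales, as was CHMP2A, with log2 changes between -0.35 and -0.26. After quantile normalization VPS25 (log2 -0.30, limma adjusted p = 0.00882) and CHMP2A (log2 -0.36, limma adjusted p = 0.00251) were called lower, and STAM was not called (limma adjusted p = 0.275). PDCD6IP was called lower on the second of them (log2 -0.19, limma adjusted p = 0.0439) and after quantile normalization (log2 -0.19, limma adjusted p = 0.0325). TSG101, SNF8, CHMP5, CHMP6, VTA1 and PTPN23 were not called on any of these scales, with log2 changes above 0 as reported and below 0 on both equal-total scales and after quantile normalization.

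**Figure D5:**
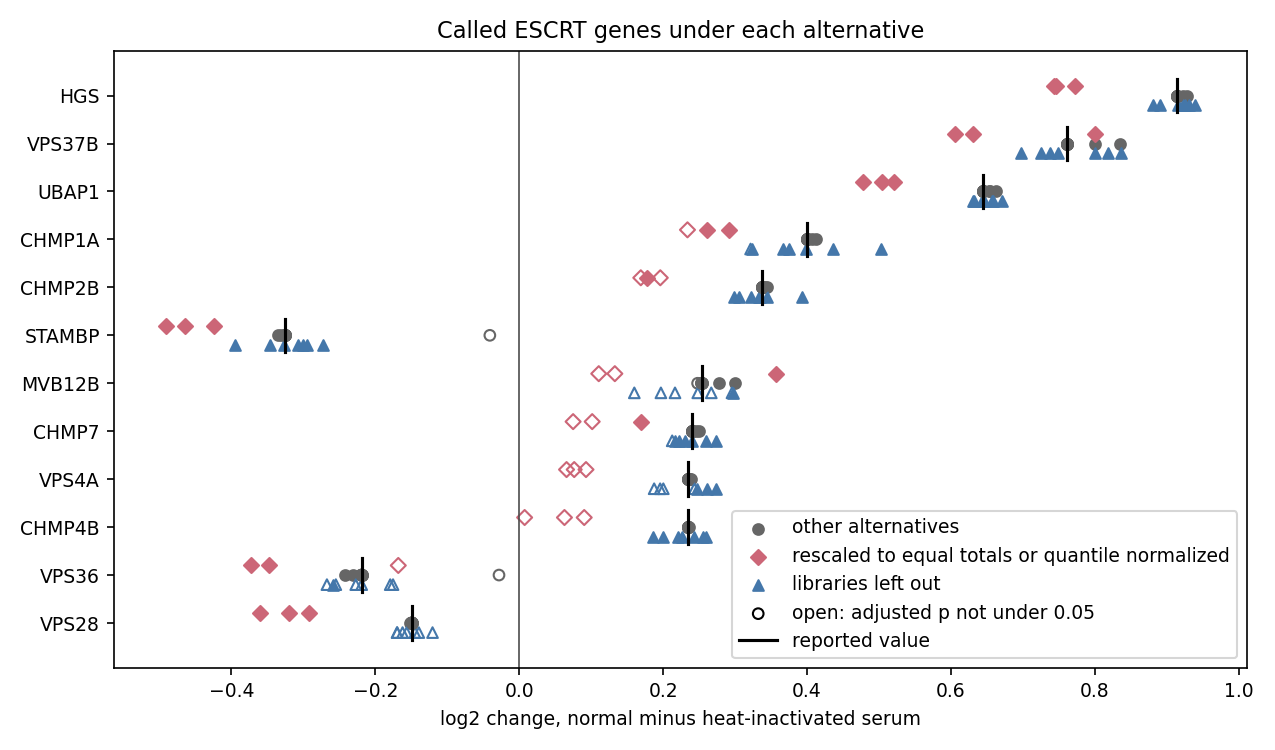
Log2 change (horizontal axis) of the 12 called members as reported (black lines) and under each of 20 alternatives (19 for MVB12B), with diamonds for the 3 rescaled versions, triangles for libraries left out, circles for the rest and open symbols where adjusted p was not under 0.05. HGS, VPS37B and UBAP1 stay filled throughout, while VPS28 is open in 13 of 20.

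Genes that work with ESCRT were described from a list of 30, of which 29 were in the table and 28 were tested. Of these 4 were called higher (14.3%, background 27.8%) and 9 lower (32.1%, background 26.1%). Together that is 46.4% against the background of 54.0%, with a median log2 change of -0.08. Among ubiquitin adaptors that run parallel to ESCRT-0, TOM1L2 went from 13.5, 13.0 and 13.1 FPKM in the control to 5.10, 6.06 and 7.01 FPKM in normal serum (log2 -1.02, limma adjusted p = 2.20e-04). TOM1, of the same family, was at 26.3, 27.6 and 29.9 FPKM in the control and at 18.9, 20.7 and 18.3 FPKM in normal serum (log2 -0.51, limma adjusted p = 0.00114). Both fell in every library, in the direction opposite to HGS. GGA1, another such adaptor, rose by 0.18 on the log2 scale (limma adjusted p = 0.0425), a call that ended without any 1 library (adjusted p from 0.0687 to 0.109).

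ANXA7, a calcium-dependent membrane-binding protein and partner of ALG-2 in membrane repair, was at 98.8, 97.3 and 102 FPKM in the control and at 71.5, 79.0 and 74.5 FPKM in normal serum. It fell by 0.40 on the log2 scale (limma adjusted p = 0.00111), and both of the 2 ALG-2 partners tested were called lower, where 26.1% of all genes were. SPG20, which encodes the IST1-binding protein spartin, was at 12.0, 13.5 and 14.6 FPKM in the control and at 7.14, 7.81 and 7.38 FPKM in normal serum (log2 -0.76, limma adjusted p = 3.34e-04). STAMBPL1, the closest relative of STAMBP, went the other way from it, from 15.1, 15.7 and 16.6 FPKM to 20.4, 22.0 and 23.3 FPKM (log2 0.45, limma adjusted p = 0.00181). SDC1, a syndecan whose vesicle release uses syntenin and ALIX, was at 44.1, 48.1 and 49.0 FPKM in the control and at 87.5, 88.2 and 85.3 FPKM in normal serum, a rise of 1.85-fold (limma adjusted p = 4.11e-05). SDCBP, which encodes syntenin itself and is named here after its values were seen, went the other way, from 139, 112 and 134 FPKM to 97.9, 95.9 and 90.5 FPKM (log2 -0.43, limma adjusted p = 0.00555). LITAF, an endosomal protein that binds NEDD4 and ESCRT components, rose 1.32-fold (61.4 ± 6.34 to 81.2 ± 6.68 FPKM, SD, n = 3, limma adjusted p = 0.00875), but was not called on either equal-total scale or after quantile normalization (adjusted p from 0.0664 to 0.109).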

How the data were processed

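The authors deposited 1 table with FPKM of each transcript in each library, beside their own log2 ratio, p-value and q-value for the 2 treatments. Per the submitters' processing notes, the tools included Cuffdiff 2.1.1, TopHat2 2.0.7 and Cufflinks 2.1.1. Their genome build: not given in the sources used here. FPKM of transcripts with the same symbol was summed (44605 transcripts, 24932 genes), so near-identical copies are not told apart. The library kit does not mark strand. In RefSeq's annotation of another macaque assembly 16 of the 35 listed genes overlap another gene, UBAP1, PDCD6, CHMP4B, VPS28, VPS4A and MVB12B among them. Their values can thus hold reads of the overlapping gene. A gene name table supplied symbols for 256 of 7008 unnamed identifiers.

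Genes averaging 1 FPKM or more were tested as log2(FPKM + 1) in limma 3.58.1, run under R 4.3.3 (trended empirical Bayes, Benjamini-Hochberg adjustment over all genes tested, no batch term). The test was checked on simulated data in which few genes changed, so that check does not cover data with as many calls as here. Folds are ratios of mean FPKM, and log2 changes understate those of low genes. Fragments were read from the lowest values of single-transcript genes: within 0.1 fragments 100% were whole in replicates 2 and 3, where chance gives 20%. The share was 48.0% in control replicate 1 and 44.4% in normal serum replicate 1.

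Members and lists were chosen with earlier results of these data known. Values in every library are given for the 10 largest called changes with separate groups, the highest and lowest member of each complex and the known repair genes, and for others where useful. Partner genes named were up to 4 called each way with the smallest adjusted p. The single-transcript fit and the use of earlier symbols were chosen after seeing the data.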

Additional observations from a re-analysis of the deposited data

How the results depend on the processing

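Gene-level values were recomputed under 20 alternatives of pseudocount, filter, scaling, variance model, transcript summing and libraries included, with 19 for MVB12B and SPAST, which fell under the filter of 5 FPKM. Single-transcript tests were run under 1 setting. With equal total FPKM 1952 genes of all were called higher (34.7% of calls, against 51.6%), and 2159 (33.0%) when totals left out transcripts under 300 bases. In the same order, 3672 of 11837 and 4392 of 11836 genes were called lower. Members called higher numbered 4 and 3, members called lower 6 and 8, and partner genes called higher 2 and 2. By complex, these scales gave 1 and 1 lower in ESCRT-0, 2 and 2 lower in ESCRT-II, 1 and 0 higher and 1 and 1 lower in ESCRT-III, and 0 and 0 higher in the VPS4 complex. The second of them also gave 1 lower among the Bro1 and ALG-2 genes and 2 lower among the deubiquitinases. Quantile normalization gave 5 members lower, 1 lower in ESCRT-III, 0 higher in the VPS4 complex and 1 lower among the Bro1 and ALG-2 genes. In ESCRT-I, the lower count was 0 with a pseudocount of 0.1 or 0.5, a mean of at least 5 FPKM, no variance trend, robust variance, no transcripts under 300 bases or replicates 2 and 3 alone, and 2 with no filter. In ESCRT-II it was 0 with no filter, a mean of at least 5 FPKM, robust variance, the highest transcript, or replicates 2 and 3 alone. Members called lower numbered 1 with a mean of at least 5 FPKM, with robust variance and within replicates 2 and 3 alone. Replicates 2 and 3 alone gave 2 higher in ESCRT-III, 0 in the VPS4 complex and 1 among the Bro1 and ALG-2 genes, and leaving out transcripts under 300 bases also gave 1 there. With the highest transcript for each gene, 1 ESCRT-III gene was lower, 0 deubiquitinases were, and the difference in the CHMP2A to CHMP2B ratio was -0.60. A term for the replicate 1 libraries gave 2 deubiquitinases lower. Leaving out 1 library at a time gave 1 to 2 members lower, 0 to 1 lower in ESCRT-0, 0 in ESCRT-I and 0 to 1 in ESCRT-II, 0 to 1 higher in the VPS4 complex and 0 to 1 higher among the Bro1 and ALG-2 genes. No called member changed sign in any of these. The cause was not tested.

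Same-numbered libraries of the 2 treatments deviated together in replicate 1 (correlation of deviations 0.193) but not in replicates 2 and 3 (0.0333 and 0.00593). Deviations from means of 3 libraries cannot show whether same-numbered libraries shared a culture or day. With a replicate block, 3525 genes were called higher and 3250 lower, 8 members were higher and 3 lower, and MVB12B was no longer called (limma adjusted p = 0.0692). At this depth VPS37D rests on about 18.0 fragments or fewer per library in replicates 2 and 3, and so limits what can be said of it.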

Other observations

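The table lists 3 symbols that are earlier names of absent members, chosen after their values were seen. KIAA0174, the earlier name of IST1, which encodes an ESCRT-III-like protein that binds VPS4 and spartin, was at 49.9, 52.0 and 52.6 FPKM in the control and at 57.2, 61.4 and 59.6 FPKM in normal serum. Its groups did not overlap (log2 0.20, limma adjusted p = 0.0199), but the call ended without control replicate 1 (adjusted p = 0.0555) and without replicate 2 of normal serum (adjusted p = 0.0751), and it ended on both equal-total scales and after quantile normalization (adjusted p from 0.589 to 0.669). VPS24, the earlier name of CHMP3, which partners CHMP2A in the filament, was at 70.0, 80.0 and 83.9 FPKM in the control and at 58.6, 72.0 and 58.9 FPKM in normal serum. Its groups overlapped, and it fell by 0.30 on the log2 scale (limma adjusted p = 0.0411), a call that ended without control replicate 2 or 3, without replicate 1 or 3 of normal serum (adjusted p from 0.108 to 0.127) and with no filter on low genes (adjusted p = 0.0634). FAM125A, the earlier name of MVB12A, was listed at 0 in all libraries on a transcript of 285 bases. With the first 2 counted as members, 10 of 30 were called higher and 4 lower, and 5 of 10 ESCRT-III genes higher and 1 lower, where 27.8% of all genes were called higher and 26.1% lower.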
